A study of Mus musculus with 30 samples.

Results

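The 10 genes described here are the usual marker genes of resident tissue macrophages: Csf1r, Cx3cr1, Adgre1, Aif1, Cd68, C1qa, C1qb, C1qc, Mrc1 and Cd163. They were picked by gene name, as 10 of the 56686 genes of a table of TPM values (a level scaled for gene length and library total). All 10 had at least 1 TPM in all 30 libraries and all were tested. The libraries were made from lumbar dorsal root ganglia (L3 to L5, both sides) of male C57BL/6J mice that were perfused with RNAlater, and hold 10 groups of 3. On day 2 the groups were CVAD, cyclophosphamide, dexamethasone and saline. On day 8 they were CVAD, cyclophosphamide, vincristine, doxorubicin, dexamethasone and saline. CVAD is a leukaemia regimen that combines cyclophosphamide, vincristine, doxorubicin (Adriamycin) and dexamethasone. The labels do not say whether a library is 1 animal or a pool, so p-values measure the spread between these libraries, which may be technical.

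The dorsal root ganglion holds the cell bodies of sensory neurons, each wrapped by satellite glia, with resident macrophages lying between them and along the vessels. Such macrophages need signalling through CSF1R, whose ligands are CSF1 and IL-34, and are known to clear debris and to shape pain after nerve injury and after some chemotherapy drugs. Monocytes recruited from blood, which carry CCR2 and Ly6C, can add to them and switch on several of the same genes. In bulk RNA, fewer macrophages and less RNA of a gene per macrophage cannot be told apart.

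The 3 C1q genes lie side by side on the minus strand of chromosome 4, within 18.7 kb in the table's coordinates (136607440 to 136626114). The table places Cx3cr1 at 119730682 to 119898945 of chromosome 9 and Cd68 at 69555039 to 69556979 of chromosome 11. Both Aif1 (35389967 to 35395044) and Adgre1 (57665691 to 57790527) lie on chromosome 17. Mrc1 lies at 14234203 to 14336868 of chromosome 2 and Cd163 at 124281615 to 124307486 of chromosome 6. The span of Cx3cr1 holds 3 genes on its own strand, among them Gorasp1 at a mean of 36.3 TPM, so its level of 11.8 TPM is the less certain for it.

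The RefSeq table of promoters (build GRCm38.p6) held 7 of the 10 genes, and the 250 bases before the start of 3 are shown because these genes carry the patterns described below: C1qb and C1qc, which varied together, and Cd163, which varied with glucocorticoid target genes. In the C1qb promoter capitals mark ACTTCCT, the reverse complement of AGGAAGT, and in the C1qc promoter the longer ACTTCCTC, the reverse complement of GAGGAAGT. AGGAAGT holds a core bound by ETS factors such as PU.1, the main regulator of macrophage identity. In the Cd163 promoter capitals mark TGTTCT, the reverse complement of the glucocorticoid receptor half-site AGAACA.
C1qb, chr4:136886201-136886450, minus strand: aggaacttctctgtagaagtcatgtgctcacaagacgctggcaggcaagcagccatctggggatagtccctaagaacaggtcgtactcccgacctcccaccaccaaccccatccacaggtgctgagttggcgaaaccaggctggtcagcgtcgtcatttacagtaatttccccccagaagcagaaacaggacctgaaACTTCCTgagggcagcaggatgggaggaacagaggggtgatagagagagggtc
C1qc, chr4:136892915-136893164, minus strand: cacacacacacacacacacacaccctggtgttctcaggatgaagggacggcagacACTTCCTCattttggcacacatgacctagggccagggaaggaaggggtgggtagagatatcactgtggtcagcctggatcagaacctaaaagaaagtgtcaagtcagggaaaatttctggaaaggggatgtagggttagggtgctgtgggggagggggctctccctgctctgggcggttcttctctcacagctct
Cd163, chr6:124304401-124304650, plus strand: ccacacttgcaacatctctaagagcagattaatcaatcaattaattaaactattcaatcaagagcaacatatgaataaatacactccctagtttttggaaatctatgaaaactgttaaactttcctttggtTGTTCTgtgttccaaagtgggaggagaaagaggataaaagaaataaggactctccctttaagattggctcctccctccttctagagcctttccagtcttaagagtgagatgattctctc
Either strand was searched. AGGAAGT was found in 3 of the 7 promoters (Mrc1, C1qb and C1qc) and in 7.69% of all 32851 promoters, and the longer form GAGGAAGT, which contains it, in C1qc and in 2.44% of all. AGAACA, a motif chosen after the expression values were seen, was found in Cd163, C1qb and C1qc and in 16.1% of all promoters. In Cd163 it began 119 bases before the start, in C1qb 178 and in C1qc 222. These matches describe the letters and say nothing of binding.

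Some libraries stood apart. Those numbered 1 to 8 in the labels, which are all CVAD and cyclophosphamide libraries of day 2 and 2 of the 3 dexamethasone libraries of day 2, differed from the other 22 in 457 genes (1.80% of 25434), none of them a resident macrophage gene (smallest adjusted p = 0.329 in limma). The set was picked after the data were seen. All 8 are of day 2 and 18 of the other 22 are of day 8, so that test does not separate the set from the day. Of the day 2 drugs, only dexamethasone has a library outside this set, so for CVAD and cyclophosphamide the set and the drug cannot be told apart. A term for the set, used below, is therefore estimated only from dexamethasone replicates 1 and 2 against replicate 3. Values given with it for a day 2 drug rest on that 1 library outside the set. In the library labelled saline day 2 replicate 3 the mean log2(TPM + 1) of 11 glucocorticoid target genes such as Fkbp5 and Tsc22d3 was 6.26. This was the third highest of the 30, while the 6 dexamethasone libraries lay between 5.51 and 5.72. Other libraries whose labels name no glucocorticoid also lay above those 6. Among them were vincristine day 8 replicate 1 (5.98), saline day 8 replicate 3 (5.95) and cyclophosphamide day 8 replicate 3 (5.94). In the library labelled vincristine day 8 replicate 1, Adgre1 was at 37.6 TPM against 9.88 to 17.99 TPM in the other 29. Skeletal muscle, spinal cord and erythroid genes varied widely between libraries, the spinal cord genes from 0 to 90.2 TPM in sum, and their part in the results was not tested.

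In level the genes formed an order. C1qa, C1qc and C1qb were highest, with means of 45.2, 45.0 and 44.0 TPM over the 30 libraries, followed by Csf1r (33.8 TPM), Mrc1 (25.3 TPM) and Cd68 (14.99 TPM). Adgre1 (13.7 TPM), Cx3cr1 (11.8 TPM), Cd163 (11.2 TPM) and Aif1 (6.402 TPM) were the lowest. The sum of the 10 ran from 177 TPM in a cyclophosphamide library of day 8 to 307 TPM in a saline library of day 8. Csf1r was the steadiest, its highest library being 1.45 times its lowest, and Cd163 the most variable, at 5.82 times. For each of the 10 genes the 10 group means were put in order, and every one of the 9 neighbouring pairs overlapped in their libraries. The highest and the lowest group did not overlap for Cd68, Aif1, Adgre1, C1qa, C1qb, C1qc and Cx3cr1. They overlapped for Csf1r, Mrc1 and Cd163. These groups were picked as the extremes of 10, and the share of all genes whose extremes stand apart was not computed.

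**Figure D1:**
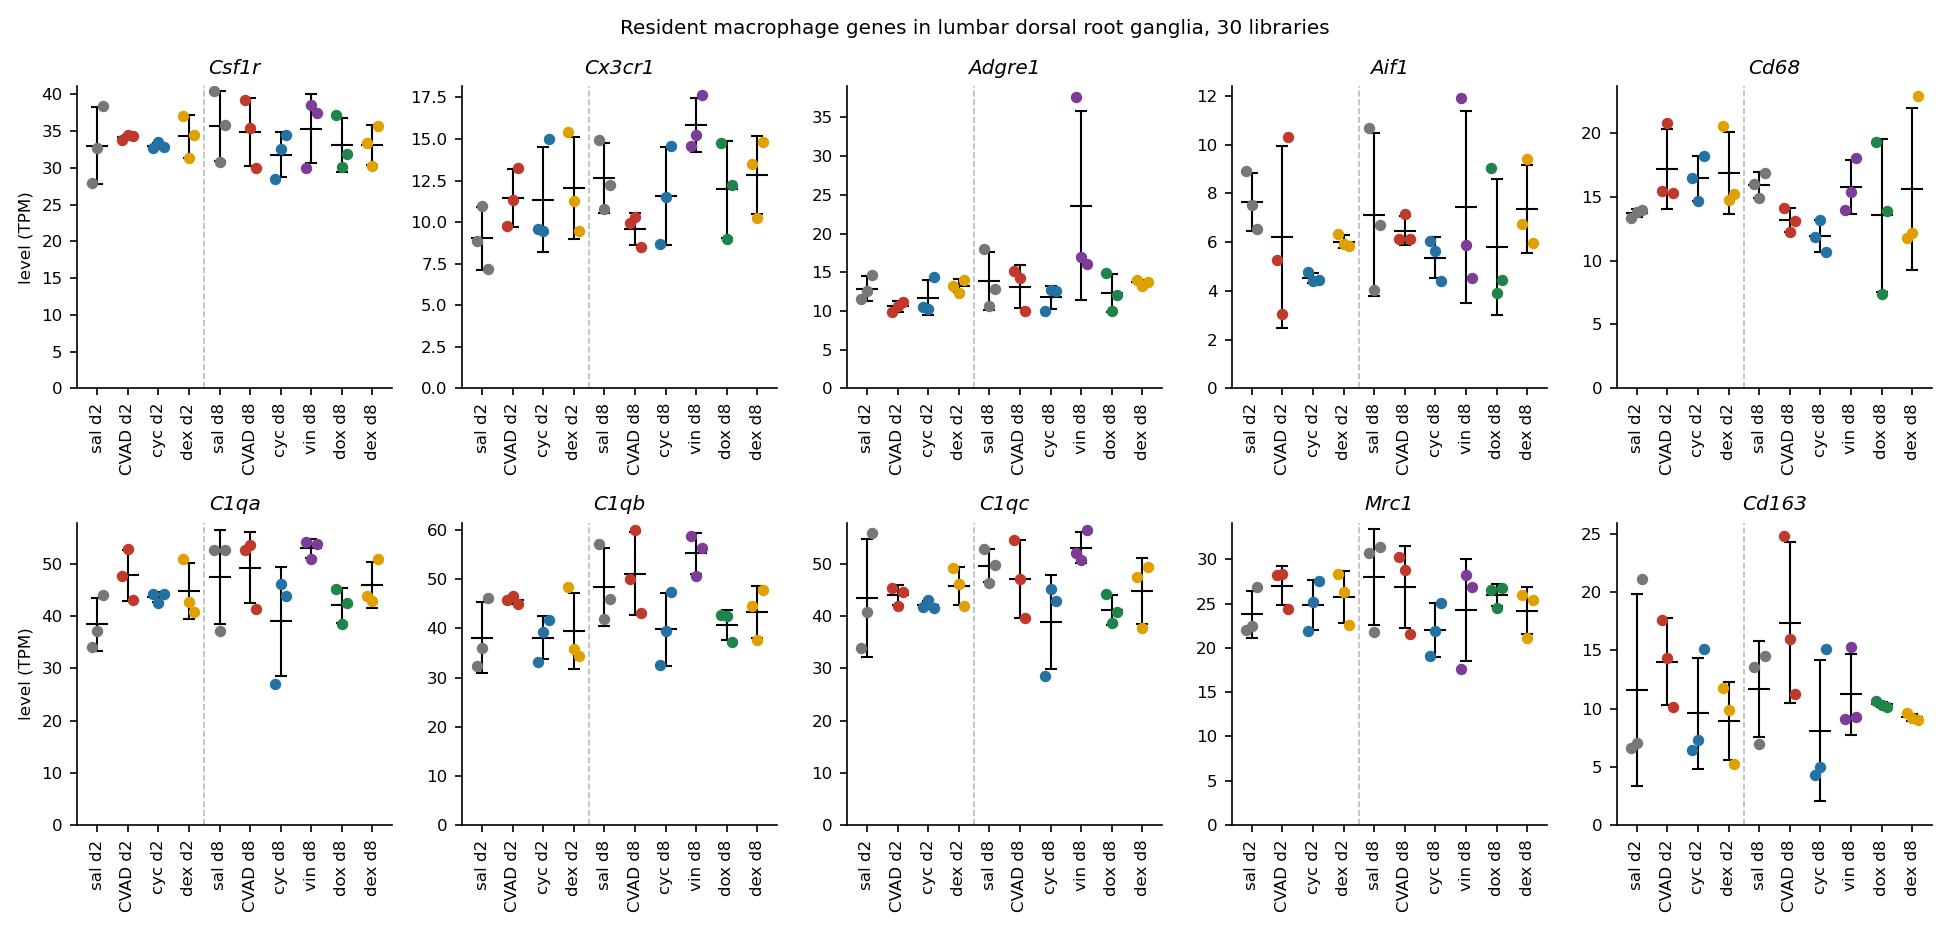
Level in TPM (y axis, from 0) of the 10 genes in each of the 10 groups (x axis, d2 and d8 for day 2 and day 8, sal, cyc, dex, vin and dox for the drugs), 1 point per library, with the group mean and SD (n = 3). Most groups overlap; the single vincristine library at 37.6 TPM of Adgre1 and the wide spread of Cd163 stand out.

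No resident macrophage gene passed an adjusted p of 0.05 in any of the 18 comparisons or in the F-tests over all drug groups of a day (limma on log2(TPM + 1), Benjamini-Hochberg adjustment over 25434 genes). Few genes of any kind passed. Against saline, the share of all genes called was 0.0432% for CVAD, 0.0118% for cyclophosphamide and 0.00393% for dexamethasone on day 2. On day 8 it was 0.00786% for cyclophosphamide and 0% for CVAD, vincristine, doxorubicin and dexamethasone. At an unadjusted p under 0.05, 0 of the 10 were reached on day 2 in any drug group, where 8.19% (CVAD), 7.51% (cyclophosphamide) and 5.37% (dexamethasone) of all genes were. On day 8, 1 of 10 was reached with cyclophosphamide (C1qc; 5.76% of all genes) and 1 of 10 with vincristine (Adgre1; 3.44%). None of the 10 was reached on day 8 with CVAD (5.98% of all genes), doxorubicin (3.35%) or dexamethasone (3.26%). These shares are near the background, and with 3 libraries a group the intervals are wide: that of Csf1r, the narrowest, ran from -0.28 to 0.22 for CVAD on day 8.

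On day 2 the directions were mixed. After CVAD 2 of the 10 had a lower mean than saline, against 33.0% of all genes, after cyclophosphamide 4 of 10 (34.3% of all) and after dexamethasone 2 of 10 (33.7% of all). With median-ratio scaling these counts were 4, 7 and 5, and with a term for libraries 1 to 8 they were 6, 8 and 5. That term is estimated from the dexamethasone libraries of day 2 alone, 2 inside the set against 1 outside. Leaving out 1 library at a time gave 2 to 4, 2 to 6 and 1 to 6. The highest of each came without saline replicate 1, for cyclophosphamide also without cyclophosphamide replicate 3. The lowest came without saline replicate 3 for cyclophosphamide and dexamethasone. On day 8 all 10 had lower means after cyclophosphamide, with a median log2 fold change of -0.29 against -0.04 over all genes, of which 61.0% were lower. All 10 also had lower means after doxorubicin (median -0.15 against -0.02, and 55.1% of all genes lower). After CVAD 7 of 10 were lower (44.7% of all), after dexamethasone 7 (56.0%) and after vincristine 4 (44.3%). The 5 comparisons of day 8 share the same 3 saline libraries. In saline itself 9 of the 10 had higher means on day 8 than on day 2. The median log2 difference was 0.21, against 0.07 over all genes, of which 34.5% were lower. The part of this rise in the day 8 counts was not tested. The 10 genes also vary together (median r of 0.46 over their pairs), so a count of 10 is not of 10 independent genes. Without 1 library or another, 9 or 10 of 10 remained lower after cyclophosphamide and 6 to 10 after doxorubicin. For CVAD the count was 3 without saline replicate 1 or CVAD replicate 3 and 9 without saline replicate 2 or CVAD replicate 2. For dexamethasone it was 6 without saline replicate 1 or dexamethasone replicate 2 and 10 without saline replicate 2. For vincristine it was 2 without saline replicate 1, saline replicate 3 or vincristine replicate 1, and 5 without saline replicate 2. Beside this, the leukocyte genes described below were also lower on day 8, and their part in the count was not tested.

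**Figure D2:**
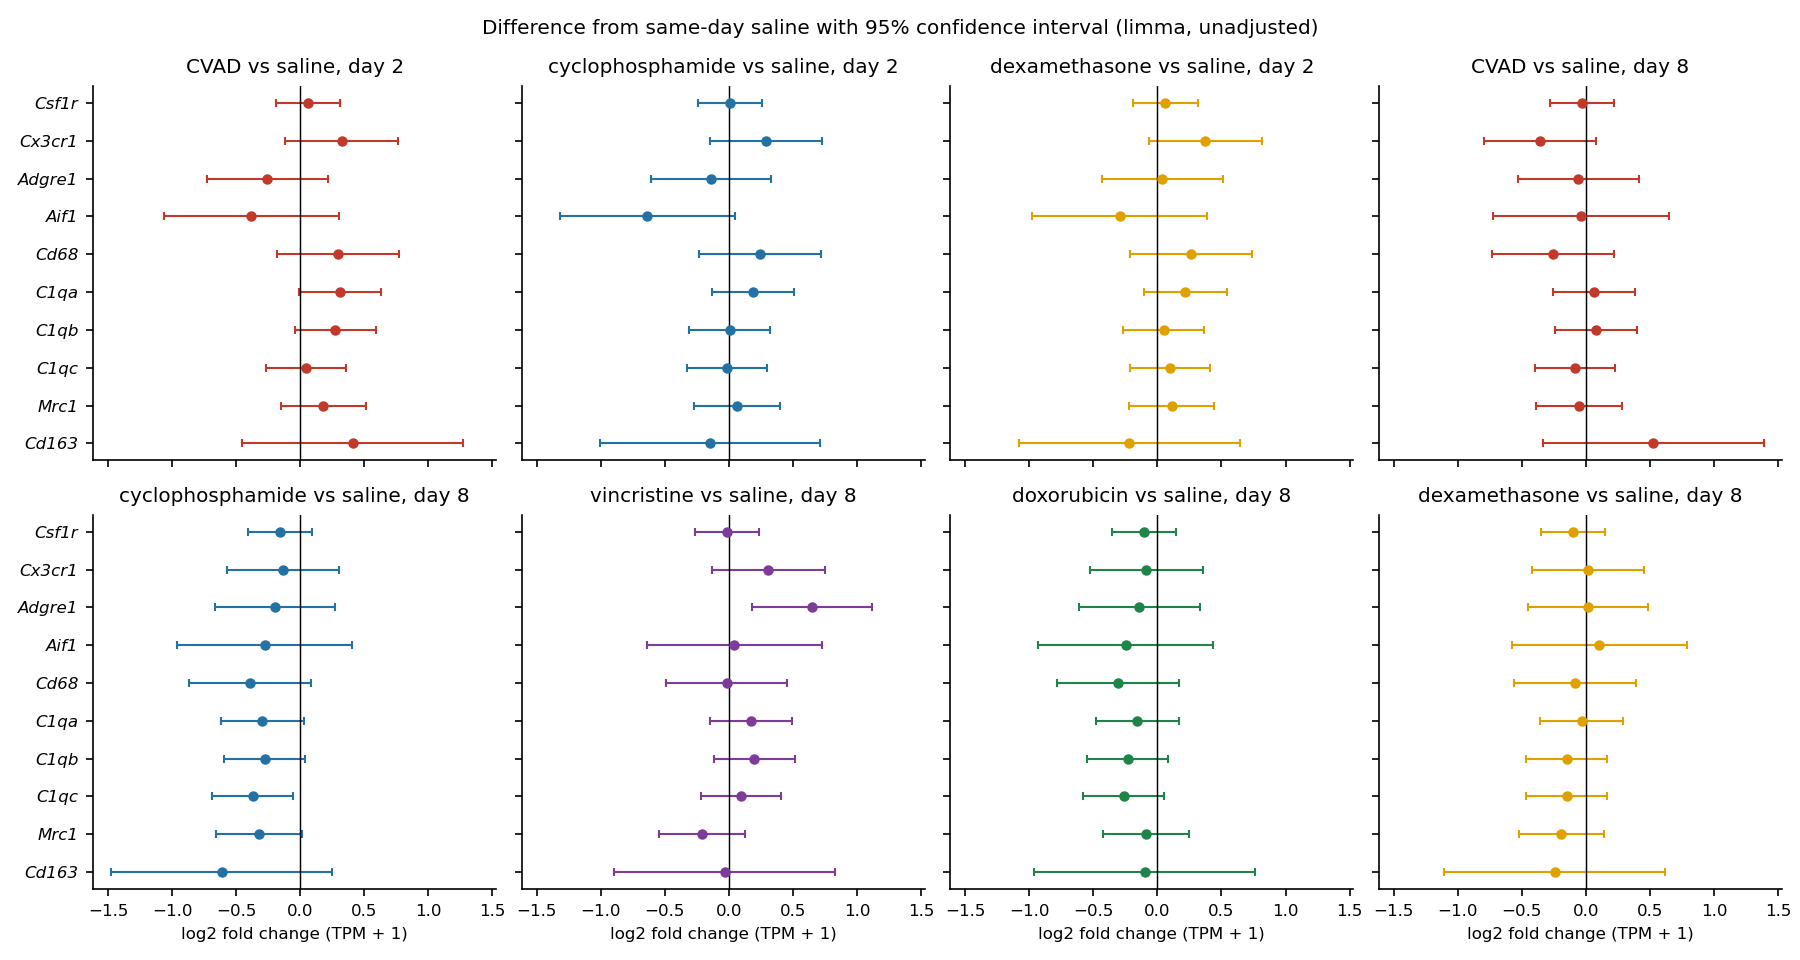
Log2 fold change of TPM + 1 against saline of the same day (x axis) for the 10 genes (y axis), 1 panel per drug and day; points are limma estimates and bars their unadjusted 95% confidence intervals. With cyclophosphamide and doxorubicin on day 8 all 10 points lie below 0; only the bars of C1qc after cyclophosphamide and of Adgre1 after vincristine leave it out.

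Csf1r encodes the receptor on which resident macrophages depend. After saline its level was 27.9, 32.6 and 38.4 TPM on day 2 and 40.4, 30.8 and 35.8 TPM on day 8. After CVAD it was 33.8, 34.4 and 34.3 TPM on day 2 and 39.2, 35.4 and 29.98 TPM on day 8. The lowest (27.9 TPM) and the highest (40.4 TPM) of the 30 libraries were both saline. The 8 log2 fold changes against saline lay between -0.16 (cyclophosphamide, day 8) and 0.06 (CVAD, day 2). Of its ligands, Csf1 had log2 fold changes of 0.18 after CVAD on day 2 (SE 0.13) and 0.04 on day 8 (SE 0.13), and Il34 of -0.01 (SE 0.12) and 0.20 (SE 0.12).

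Cx3cr1 encodes the receptor for fractalkine, a chemokine that neurons and vessels display. Of the comparisons on day 8, CVAD against vincristine gave its largest difference. Its level was 9.96, 10.3 and 8.52 TPM after CVAD, 14.6, 15.2 and 17.7 TPM after vincristine and 14.9, 10.8 and 12.2 TPM after saline. The CVAD libraries all lay below those of vincristine and saline. They overlapped those of cyclophosphamide (8.66 to 14.6 TPM), doxorubicin (8.95 to 14.8 TPM) and dexamethasone (10.25 to 14.8 TPM) of day 8. The log2 fold change was -0.67 (SE 0.21, adjusted p = 1) against vincristine and -0.36 (SE 0.21, adjusted p = 0.899) against saline. On day 2 the saline libraries were themselves low (8.88, 10.97 and 7.20 TPM), and the log2 difference of saline between the days was 0.45 (SE 0.21, adjusted p = 0.702). The change in the CVAD difference from day 2 to day 8 was -0.68 (SE 0.30, adjusted p = 0.505), and -0.24 when libraries 1 to 8 were given a term of their own. The log2 fold change after dexamethasone on day 2 was 0.37 (SE 0.21, adjusted p = 0.932), with 0.20 when dexamethasone replicate 1 was left out and 0.08 when libraries 1 to 8 had their own term. Its ligand gene Cx3cl1 had a log2 fold change of 0.05 after CVAD (SE 0.25) and 0.05 after vincristine (SE 0.25) on day 8.

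Adgre1 encodes F4/80, the classical surface marker of mouse macrophages. After vincristine it was at 37.6, 16.9 and 16.1 TPM, and after saline on day 8 at 17.99, 10.7 and 12.9 TPM. The groups overlapped. The log2 fold change was 0.65 (SE 0.23, adjusted p = 1), and 0.27 without vincristine replicate 1. Against vincristine, CVAD on day 8 (15.2, 14.3 and 10.01 TPM) had a log2 fold change of -0.71 (SE 0.23, adjusted p = 1), and of -0.33 without that library. That library also had the most Aif1 (11.9 TPM) and C1qa (54.2 TPM) of the 30 and the least Mrc1 (17.6 TPM), and its summed level of 12 macrophage activation genes, 27.9 TPM, was the highest. Its Csf1r was low (29.98 TPM, rank 28), and Cd163 was at 9.14 TPM (rank 21). The summed level of the CSF1R signalling and lineage genes, 512 TPM, was rank 28 of the 30, that of microglial genes, 53.1 TPM, rank 29, and that of fractalkine and haemoglobin genes, 707 TPM, the lowest. Endothelial and glial genes were low there, at 179 TPM (rank 28) and 1129 TPM (rank 27). On day 2 the 3 CVAD libraries (9.88, 10.7 and 11.2 TPM) lay below the 3 saline libraries (11.5, 12.6 and 14.6 TPM), a log2 fold change of -0.26 (SE 0.23, adjusted p = 0.848), and -0.13 with a term for libraries 1 to 8.

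Aif1 encodes IBA1, the calcium-binding protein most used to stain macrophages and microglia, and was the least abundant. After cyclophosphamide on day 2 its level was 4.76, 4.42 and 4.43 TPM and after saline 8.93, 7.52 and 6.55 TPM, with no overlap. The log2 fold change of -0.64 (SE 0.33, adjusted p = 0.698) did not pass. After dexamethasone the levels of 6.32, 5.92 and 5.84 TPM also lay under saline, with a log2 fold change of -0.29 (SE 0.33, adjusted p = 0.997). All 3 cyclophosphamide libraries are among libraries 1 to 8.

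Cd68 encodes a glycoprotein of macrophage lysosomes. Its means lay above saline on day 2 with all 3 drugs and below it on day 8 with all 5. On day 2 saline was at 13.4, 13.8 and 13.96 TPM, and all 9 drug libraries lay above it, from 14.7 to 20.8 TPM. The log2 fold changes were 0.29 for CVAD, 0.24 for cyclophosphamide and 0.26 for dexamethasone (SE 0.23 each, smallest adjusted p = 0.819). With a term for libraries 1 to 8 they were 0.11, 0.06 and 0.14. Without CVAD replicate 2 the value for CVAD was 0.15, and without dexamethasone replicate 1 that for dexamethasone was 0.12. All 3 values rest on the same 3 saline libraries. On day 8 saline was at 15.98, 14.9 and 16.9 TPM, above CVAD (14.1, 12.2 and 13.1 TPM, log2 fold change -0.26) and cyclophosphamide (11.9, 13.2 and 10.7 TPM, log2 fold change -0.39, SE 0.23, adjusted p = 0.925). The other 3 drugs of day 8 overlapped saline and ranged from 7.40 to 22.9 TPM. Of 15 other lysosome genes, 8 had lower means after cyclophosphamide on day 8 and 7 after CVAD, with medians of -0.01 and 0.01, and none passed.

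Cd68 accounts for 5 of the 11 cases in which the 3 drug libraries and the 3 saline libraries did not overlap, and the comparisons of a day share their saline libraries. There were 2 such genes for CVAD on day 2 (Cd68 and Adgre1; 13.5% of all genes), 2 for cyclophosphamide (Cd68 and Aif1; 11.5%) and 2 for dexamethasone (Cd68 and Aif1; 8.91%). On day 8 there were 2 for CVAD (Cd68 and Cx3cr1; 9.99%), 2 for cyclophosphamide (Cd68 and C1qc; 9.48%) and 1 for doxorubicin (C1qc; 5.99%). There were 0 for vincristine (6.18% of all genes) and 0 for dexamethasone (6.51%).

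C1qa, C1qb and C1qc encode the A, B and C chains of C1q, the recognition molecule of the classical complement pathway, made chiefly by tissue macrophages. The gene with the smallest p for cyclophosphamide against saline on day 8 was C1qc, at 28.5, 45.3 and 42.9 TPM against 52.9, 46.4 and 49.8 TPM after saline. The groups did not overlap, and the log2 fold change was -0.37 (SE 0.15, adjusted p = 0.782). Without cyclophosphamide replicate 1, the lowest library for C1qc and C1qa of the 30, it was -0.17. After doxorubicin C1qc was at 44.3, 38.6 and 40.7 TPM (log2 fold change -0.26, SE 0.15, adjusted p = 1) and C1qb at 42.7, 42.4 and 37.3 TPM (log2 fold change -0.23, SE 0.15, adjusted p = 1).

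After CVAD the means of the C1q chains lay near or above those of saline. On day 2 C1qa was at 47.7, 52.9 and 43.1 TPM against 34.2, 37.2 and 44.1 TPM after saline, a log2 fold change of 0.31 (SE 0.16, adjusted p = 0.625), and 0.12 with a term for libraries 1 to 8. On day 8 C1qa was at 52.8, 53.7 and 41.5 TPM after CVAD and 27.1, 46.2 and 43.9 TPM after cyclophosphamide alone. That difference was 0.36 (SE 0.16, adjusted p = 0.914), and it was 0.12 without cyclophosphamide replicate 1. The same comparison gave 0.36 for C1qb (SE 0.15, adjusted p = 0.914), and 0.22 without that replicate. For saline of the 2 days C1qb was at 57.3, 42.0 and 46.0 TPM on day 8 and 32.3, 35.9 and 46.2 TPM on day 2 (log2 fold change 0.34, SE 0.15, adjusted p = 0.685). The change in the cyclophosphamide difference of C1qa from day 2 to day 8 was -0.48 (SE 0.22, adjusted p = 0.495). It was -0.24 without cyclophosphamide replicate 1 of day 8. Vincristine had the highest mean of all 3 chains: 53.0 ± 1.79 TPM for C1qa, 55.3 ± 4.16 TPM for C1qb and 53.2 ± 3.03 TPM for C1qc (SD, n = 3). Against saline of day 8 the log2 fold changes were 0.17 (SE 0.16), 0.20 (SE 0.15) and 0.10 (SE 0.15). For each chain the vincristine and saline libraries overlapped.

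The 3 chains varied together across the 30 libraries more than most pairs did. Pearson's r of log2(TPM + 1) was 0.82 for C1qa with C1qc, 0.79 for C1qa with C1qb and 0.75 for C1qb with C1qc, against a median of 0.46 over all 45 pairs of the 10 genes. Csf1r followed C1qc (0.76) and Mrc1 (0.76), and Mrc1 followed Cd163 (0.73). Aif1 did not take part: its r was -0.20 with Mrc1, 0.07 with C1qa and 0.04 with Csf1r, and reached 0.53 with Adgre1, the 2 genes that share a peak in vincristine replicate 1. These correlations describe libraries that share groups and the scaling to a fixed total.

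**Figure D3:**
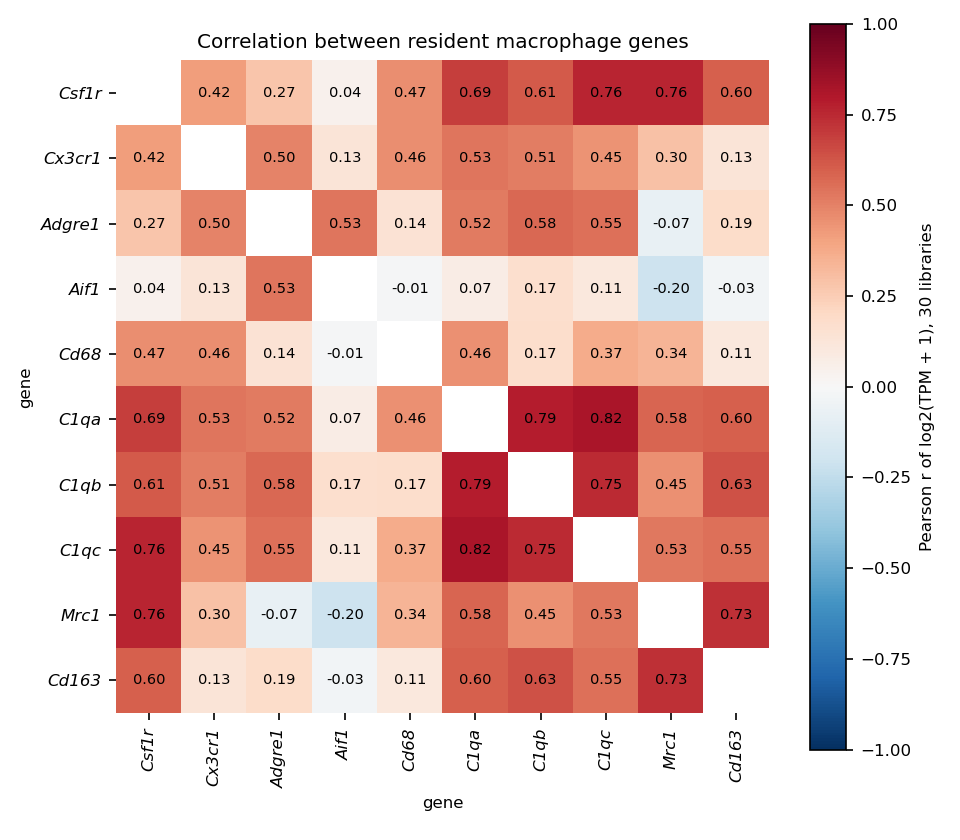
Pearson's r of log2(TPM + 1) over the 30 libraries for each pair of the 10 genes (both axes), red positive and blue negative. The C1q block, Csf1r, Mrc1 and Cd163 are red together, and the row of Aif1 is pale but for Adgre1.

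Mrc1 encodes the mannose receptor CD206, and Cd163 the receptor that takes up haptoglobin-bound haemoglobin; both mark perivascular resident macrophages. Mrc1 was at 19.1, 21.9 and 25.1 TPM after cyclophosphamide on day 8 against 30.7, 21.8 and 31.5 TPM after saline. The groups overlapped, with a log2 fold change of -0.32 (SE 0.16, adjusted p = 0.882). After dexamethasone the log2 fold change of Mrc1 was -0.19 (SE 0.16, adjusted p = 1).

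Cd163 varied the most between libraries. On day 8 it was at 24.8, 16.02 and 11.2 TPM after CVAD and at 4.27, 4.94 and 15.1 TPM after cyclophosphamide, and the groups overlapped. The log2 difference was 1.14 (SE 0.42, adjusted p = 0.908), and from 0.84 to 1.65 without 1 library or another. Dexamethasone on day 8 gave 9.60, 9.16 and 9.04 TPM, all below CVAD, with a log2 difference of 0.77 for CVAD against it (SE 0.42, adjusted p = 1). Saline on day 8 was at 13.6, 6.96 and 14.5 TPM. Against it the log2 fold change was 0.53 for CVAD (adjusted p = 0.95), -0.61 for cyclophosphamide (adjusted p = 0.974) and -0.25 for dexamethasone (adjusted p = 1), with an SE of 0.42 each. Single libraries moved all 3. For CVAD the value was 0.22 without saline replicate 2 and 0.79 without CVAD replicate 3. For cyclophosphamide it was -1.12 without cyclophosphamide replicate 3 and -0.32 without its replicate 1. For dexamethasone it was -0.55 without saline replicate 2 and -0.07 without saline replicate 3.

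On day 2 the comparison of Cd163 turned on 1 saline library. Saline was at 6.62, 7.02 and 21.1 TPM, CVAD at 17.6, 14.3 and 10.1 TPM and dexamethasone at 11.7, 9.83 and 5.21 TPM. The log2 fold change was 0.41 for CVAD (SE 0.42, adjusted p = 0.877) and 0.91 without saline replicate 3, the library with high glucocorticoid target genes. That library also had the highest sums of the 30 for spinal cord genes (90.2 TPM) and skeletal muscle genes (915 TPM), whose part was not tested. For dexamethasone it was -0.22 (SE 0.42, adjusted p = 1), and 0.28 without that library. With a term for libraries 1 to 8, which rests on dexamethasone replicates 1 and 2 against replicate 3 (5.21 TPM), the value for CVAD was -0.51.

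Dexamethasone is a glucocorticoid, and CD163 is a known glucocorticoid-induced gene of macrophages. Over the 30 libraries Cd163 went with the mean of the 11 glucocorticoid target genes (Fkbp5, Tsc22d3, Per1, Zbtb16, Sgk1, Dusp1, Nfkbia, Klf9, Ddit4, Mt1 and Mt2), a relation chosen after the values were seen. Pearson's r was 0.76 (permutation p = 1e-05, adjusted p = 1e-04 over the 10 genes) and Spearman's rho 0.69 (permutation p = 0.00012, adjusted p = 4e-04); 1e-05 is the smallest p that 100000 permutations can give. It was 0.70 without the 2 libraries farthest from the median of the list, both CVAD of day 8, 0.75 for residuals from group means, 0.80 over the 12 libraries of day 2 and 0.74 over the 18 of day 8. Within libraries 1 to 8 it was 0.65, and within the other 22 it was 0.79. The permutations shuffled all 30 libraries freely, across groups and across libraries 1 to 8. The p-values here and below therefore take no account of the groups, nor of the relation being chosen after the values were seen.

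The C1q chains showed a relation of the same kind, weaker than that of Cd163 by Pearson's r. By Spearman's rho C1qa and C1qb were as close to the list as Cd163 (0.69), and only C1qc was weaker. C1qb had r = 0.62 (permutation p = 0.00019, adjusted p = 0.00095; rho 0.70, permutation p = 1e-05, adjusted p = 5e-05), C1qa 0.58 (permutation p = 0.00102, adjusted p = 0.0034; rho 0.71, permutation p = 1e-05, adjusted p = 5e-05) and C1qc 0.55 (permutation p = 0.00186, adjusted p = 0.00465; rho 0.52, permutation p = 0.0032, adjusted p = 0.00533). Without the 2 farthest libraries they were 0.55, 0.52 and 0.53, and within libraries 1 to 8 they were 0.47, 0.52 and 0.08. Csf1r had r = 0.50 (permutation p = 0.00525, adjusted p = 0.0105; rho 0.55, permutation p = 0.00196, adjusted p = 0.0049) and 0.42 without the 2. Mrc1 had r = 0.44 (permutation p = 0.0163, adjusted p = 0.0272; rho 0.53, permutation p = 0.00293, adjusted p = 0.00533) and 0.33 without them. Within libraries 1 to 8 Csf1r had 0.25 and Mrc1 0.55, and within the other 22 they had 0.54 and 0.43.

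Cd68, Aif1, Adgre1 and Cx3cr1 did not pass. Their r was 0.06 for Cd68 (permutation p = 0.752, adjusted p = 0.836; rho 0.23, permutation p = 0.224, adjusted p = 0.281) and -0.03 for Aif1 (permutation p = 0.873, adjusted p = 0.873; rho -0.03, permutation p = 0.877, adjusted p = 0.877). It was 0.29 for Adgre1 (permutation p = 0.128, adjusted p = 0.182; rho 0.37, permutation p = 0.0433, adjusted p = 0.0619) and -0.08 for Cx3cr1 (permutation p = 0.69, adjusted p = 0.836; rho 0.16, permutation p = 0.412, adjusted p = 0.458). Without the 2 farthest libraries they were 0.17, -0.08, 0.27 and 0.02. How many of all genes went with the list as closely was not counted. The relations are therefore not shown to be particular to macrophage genes.

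**Figure D4:**
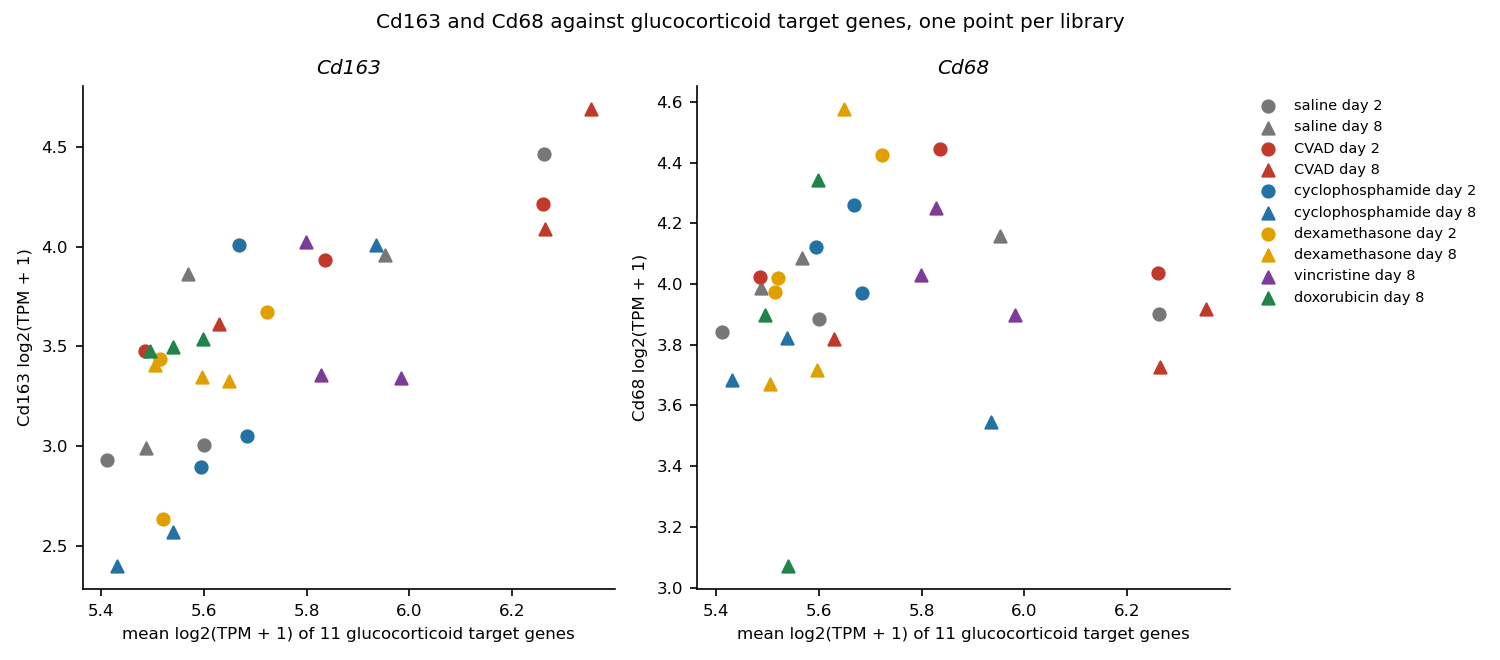
Cd163 (left) and Cd68 (right), each as log2(TPM + 1) on the y axis, against the mean log2(TPM + 1) of 11 glucocorticoid target genes on the x axis, 1 point per library, coloured by drug, circles for day 2 and triangles for day 8. Cd163 climbs with the list (r = 0.76) and Cd68 does not (r = 0.06); 1 saline library of day 2 lies among the CVAD libraries at the right.

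The glucocorticoid target genes did not follow the dexamethasone label. After CVAD on day 8 10 of the 11 had higher means than saline (median log2 fold change 0.40), with Mt2 at 82.3 TPM against 38.8 TPM (log2 fold change 1.06, SE 0.25). Of all genes 44.7% had lower means there. The mean log2(TPM + 1) of the 11 was 6.35, 6.26 and 5.63 in these CVAD libraries and 5.57, 5.49 and 5.95 in saline. CVAD replicate 3 thus lay inside the saline range. After dexamethasone 8 of 11 had lower means on day 2 (median -0.21, 33.7% of all genes lower) and 9 on day 8 (median -0.09, 56.0% of all genes lower). None of the 11 passed in any comparison with saline. Fkbp5 had a log2 fold change of -0.25 (SE 0.26) after dexamethasone on day 2.

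The remaining comparisons set CVAD against the single drugs and the days against each other. For CVAD against cyclophosphamide the share of all genes called was 0.00393% on day 2 and 0% on day 8, against dexamethasone 0% on both days, and against vincristine and doxorubicin 0%. At an unadjusted p under 0.05, 0 of the 10 genes were reached against cyclophosphamide on day 2 (3.83% of all genes) and against dexamethasone on day 2 (3.66%). On day 8, 3 of 10 were reached against cyclophosphamide (C1qa, C1qb and Cd163; 5.34% of all genes) and 2 of 10 against vincristine (Adgre1 and Cx3cr1; 3.48%). None was reached against doxorubicin (4.80%) or dexamethasone (4.94%). For the change of a drug's difference from day 2 to day 8, 1 of 10 was reached for CVAD (Cx3cr1; 8.63% of all genes, 0.0826% called), 1 for cyclophosphamide (C1qa; 9.55%, 0% called) and 0 for dexamethasone (4.92%, 0% called). Saline of day 8 against day 2 reached 2 of 10 (C1qb and Cx3cr1; 6.93% of all genes, 0.00393% called). The F-tests reached 0 on day 2 (5.58% of all genes, 0.0118% called) and 2 on day 8, Adgre1 (adjusted p = 0.915) and C1qb (adjusted p = 1), among 4.24% of all genes and 0% called.

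Genes around these markers were read from lists of known function, and no gene of the 20 lists passed against saline. On day 8 most of the related genes had lower means after cyclophosphamide than after saline, as had 61.0% of all genes, whose median was -0.04 and of which 5.76% reached an unadjusted p under 0.05. Of 20 genes of CSF1R signalling and macrophage lineage, 16 had lower means (median -0.15), 6 of them at an unadjusted p under 0.05. They include Csf2rb, the shared receptor chain for GM-CSF (7.06 against 11.3 TPM, log2 fold change -0.64, SE 0.20, adjusted p = 0.631), and Syk, a kinase downstream of immune receptors (9.70 against 16.5 TPM, -0.70, SE 0.23, adjusted p = 0.649). Of 26 tested genes of other macrophage markers, 23 had lower means (median -0.35), 9 at an unadjusted p under 0.05. Ctss, a lysosomal protease, was at 22.2 against 34.6 TPM (-0.63, SE 0.18, adjusted p = 0.496) and Laptm5, a lysosomal membrane protein of leukocytes, at 28.2 against 42.7 TPM (-0.58, SE 0.17, adjusted p = 0.572).

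After CVAD on day 8 the other macrophage markers lay on both sides of saline. Of the 26, 16 had lower means (median -0.15), 6 of them and 3 of those with higher means at an unadjusted p under 0.05. Of all genes 44.7% had lower means and 5.98% reached such a p, with a median of 0.02. The 3 lower ones of smallest p were Fcer1g, an Fc receptor chain (24.7 against 36.7 TPM, -0.54, SE 0.15, adjusted p = 0.421), Mpeg1, perforin-2 (14.9 against 22.4 TPM, -0.58, SE 0.19, adjusted p = 0.537), and Ptprc, the pan-leukocyte marker CD45 (15.97 against 25.5 TPM, -0.65, SE 0.21, adjusted p = 0.537). The 3 with higher means, picked after their values were seen, were Lyve1, a perivascular macrophage and lymphatic marker (15.4 against 10.01 TPM, 0.59, SE 0.20, adjusted p = 0.581), Mertk, a receptor for dying cells (37.3 against 24.7 TPM, 0.56, SE 0.20, adjusted p = 0.599), and Cbr2 (27.9 against 17.005 TPM, 0.73, SE 0.26, adjusted p = 0.609). Among 12 complement partners of C1q, 7 had lower means after CVAD and 10 after cyclophosphamide (medians -0.02 and -0.11). Among 9 tested genes of fractalkine signalling and haemoglobin handling, Hp, the haptoglobin whose complexes CD163 binds, was at 17.4 against 30.4 TPM after CVAD (-0.79, SE 0.31, adjusted p = 0.663).

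For recruited monocyte genes the saline libraries of day 8 lay apart from every drug group of that day. The summed level of 9 monocyte genes was 112 to 161 TPM in the 3 saline libraries of day 8. It was 44.5 to 68.0 TPM after CVAD, 59.6 to 87.4 TPM after cyclophosphamide, 54.8 to 106 TPM after vincristine, 58.1 to 101 TPM after doxorubicin and 79.8 to 107 TPM after dexamethasone, so that no drug library reached the saline range. On day 2 saline itself was at 51.4 to 81.4 TPM, and CVAD was at 76.3 to 136.6 TPM, 1 of its 3 libraries lying inside the range of saline on day 8. Between the days of saline all 9 monocyte genes had higher means on day 8, 8 of them at an unadjusted p under 0.05, as did all 11 tested neutrophil granule genes, each at such a p (6.93% of all genes). The summed level of the 10 resident genes overlapped with saline in every group: 225 to 307 TPM after saline on day 8, 225 to 297 TPM after CVAD, 177 to 251 TPM after cyclophosphamide and 288 to 300 TPM after vincristine.

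Single monocyte genes had large differences that still did not pass. After CVAD on day 2 all 9 had higher means than saline (median 0.45), as had all 11 tested neutrophil granule genes (median 0.67). After CVAD on day 8 all 9 had lower means (median -0.73), among them Ifitm6 (2.60 against 17.8 TPM, -2.40, SE 0.47, adjusted p = 0.115), Plac8 (4.51 against 18.8 TPM, -1.88, SE 0.48, adjusted p = 0.306) and Chil3 (16.5 against 38.8 TPM, -1.15, SE 0.32, adjusted p = 0.421). After cyclophosphamide, doxorubicin and dexamethasone all 9 were lower as well (medians -0.61, -0.68 and -0.49), and after vincristine 8 (median -0.79). All 11 tested neutrophil granule genes had lower means after each of the 5 drugs of day 8, with a median of -1.75 after CVAD and -0.89 after cyclophosphamide. Their summed level was 319 to 488 TPM after saline and 95.6 to 142 TPM after CVAD. Other lists had higher sums in saline of day 8 than after CVAD. Genes of cell division summed to 49.3 to 104.5 TPM there and to 23.8 to 47.0 TPM after CVAD, and osteoclast genes to 60.8 to 78.3 and 32.1 to 57.2 TPM. For B cell genes the sums were 71.6 to 132.1 TPM after saline and 30.9 to 73.6 TPM after CVAD, which overlap. The part of these cells in the monocyte and neutrophil results was not tested. S100a8 and S100a9 of the same list were listed at 0 in all 30 libraries, as were Il10 and Cd86 among activation genes. Each list's median is a description, and the difference between the resident and the recruited genes was not tested.

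**Figure D5:**
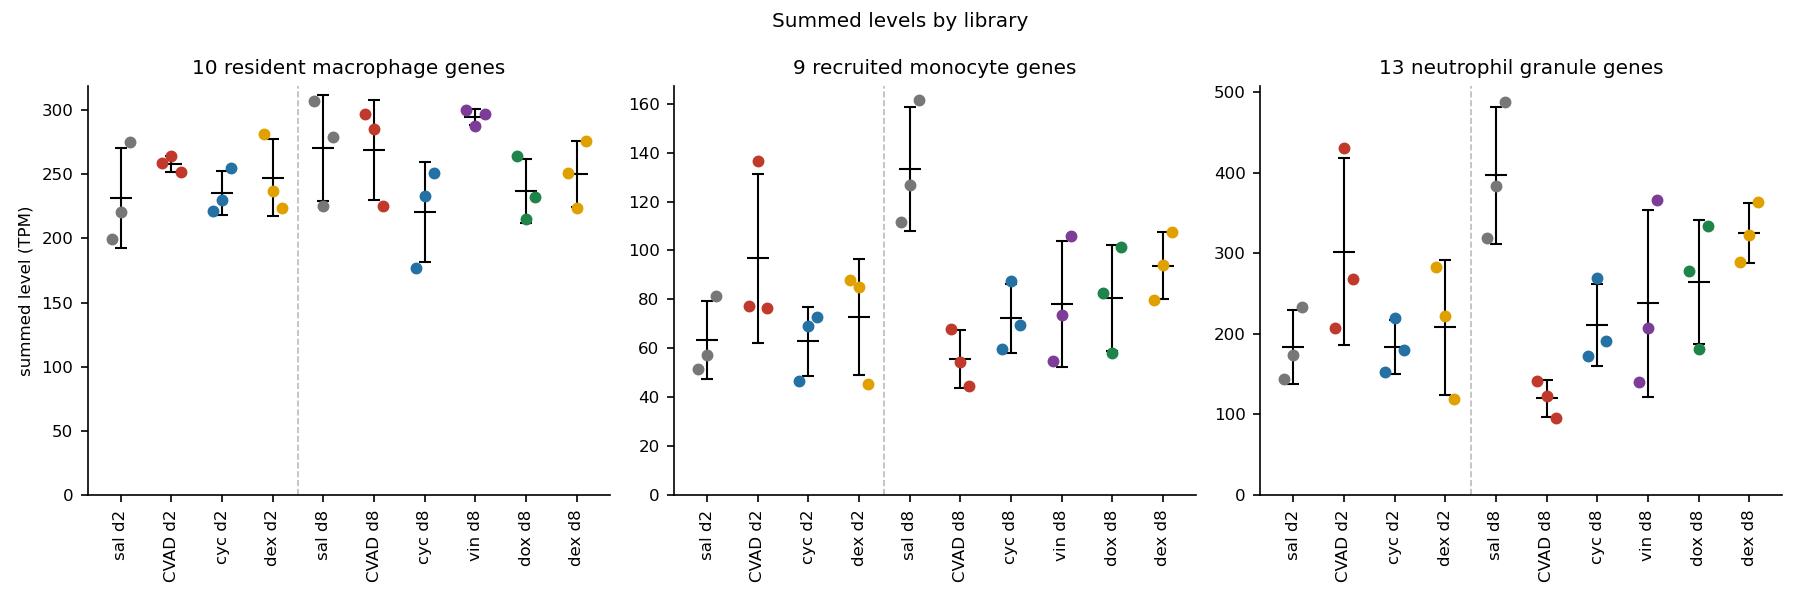
Summed TPM (y axis, from 0) of the 10 resident macrophage genes, 9 recruited monocyte genes and 13 neutrophil granule genes in the 10 groups (x axis, abbreviated as drug and day), 1 point per library, with mean and SD (n = 3). The resident genes overlap with saline everywhere, while the monocyte sum of saline on day 8, 112 to 161 TPM, lies above every drug group of that day.

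The 8 protein-coding genes whose log2(TPM + 1) went most closely with the mean of the 10 standardised genes over the 30 libraries were Ptprj (r = 0.85), Dhx58 (0.83), Fcrls (0.83), Tgtp1 (0.82), Rnf213 (0.82), Mmp2 (0.82), Mcm4 (0.82) and Unc93b1 (0.81). For residuals from group means the r of these genes was between 0.73 and 0.86. By that measure they were not the closest, ranking from 17 (Mmp2) to 471 (Unc93b1) among protein-coding genes. The genes most like Cd163 alone, looked up after its values were seen, included Slc9a3 (0.84), Lbp (0.82), Fam107a (0.81) and Iqgap2 (0.81), and also Sgk1 (0.80), Zbtb16 (0.80) and Nfkbia (0.79) of the glucocorticoid list.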

How the data were processed

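Total RNA was made into stranded libraries after depletion of ribosomal RNA, per the labels' protocols. Tools named in the submitters' processing notes are StringTie 2.2.1, STAR 2.7.10b and FastQC 0.12.1; GRCm39 and mm10 are both listed, with no role given. Gene coordinates are those of the deposited table, and they differ from RefSeq's GRCm38.p6 positions. The authors deposited TPM per gene, with column sums of 999910 to 999941 and no read totals, so no counting error is given.

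Groups came from the labels, and replicate numbers follow accession order. Tested genes (25434) reached 1 TPM in 3 or more of the 30 libraries. Values were analysed as log2(TPM + 1), which understates changes of low genes. The fit in limma 3.58.1 (R 4.3.3) held a mean for each of 10 groups and a variance trend; p-values are 2-sided and adjusted by Benjamini-Hochberg over all genes in each comparison. The fit was checked on simulated data. Correlations used numpy 2.4.6.

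The members and lists were chosen with earlier results of these data known. All 10 genes were named, and of other lists at most the 3 of smallest p in a comparison. The ligands, Hp, Fkbp5, Mt2, Lyve1, Mertk, Cbr2, the AGAACA motif and the glucocorticoid relation were picked after values were seen. Alternatives were: 0.1 as pseudocount, all genes unfiltered, size factors by median ratio, each day modelled alone, no variance trend, protein-coding genes alone, quality weights, each library left out, and, added after the data were seen, a term for libraries 1 to 8.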

Additional observations from a re-analysis of the deposited data

How the results depend on the processing

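The count of resident macrophage genes past the adjusted threshold stayed at 0 in all 312 alternative counts over the 18 comparisons and 2 F-tests, and none of the 33 fold changes of the resident genes recomputed under each alternative passed. Those of Csf1r, of the C1q chains for vincristine against saline on day 8 and of genes outside the 10 were not recomputed one by one. Of the 33, 31 kept their sign in every setting that kept all libraries. The value of Cd163 for CVAD on day 2 was -0.51 with a term for libraries 1 to 8, and that for dexamethasone on day 2 was 0.054 with library quality weights and -0.49 to 0.28 when libraries were left out in turn; only saline replicate 3 (0.28) and dexamethasone replicate 3 (0.09) turned it. The cause was not tested. Median-ratio scaling moved the median of all genes by over 0.1 only in the cyclophosphamide change between days, where the median was -0.11. No paired analysis was possible because the labels give no replicate numbers and those used only follow accession order. The alternative meant for counts was not run, since the table holds TPM. Read depth is unknown, so low genes such as Aif1 have a counting error that could not be stated.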
